A study of Oncorhynchus kisutch with 226 samples.

Results

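The fish compared were 14 wild coho salmon (Oncorhynchus kisutch) caught at sea in spring 2009 and 17 wild smolts of the same year, 7 from the Salmon River and 10 from the Capilano River. They were chosen by their season, year and origin labels alone, and they are 31 of the 226 fish whose livers were measured in the series. Every fish was wild and untreated, and no age or strain was given. The spring fish were all caught in the area labelled south_SoG, between latitudes 48.727 and 49.195. Their stock label was ECVI for 8 fish, Fraser for 4, Chilliwack_R for 1 and Puget_Sound for 1. The Salmon River smolts carried the label Fraser and the Capilano River smolts the label S_Main, so stock, place and life stage changed together. Within the Fraser label the stock was the same on both sides, but place and life stage still changed together. Sex was undetermined for all 14 spring fish and given for only some of the smolts, so its balance between the groups could not be checked. Fish are numbered within their group, and a number only names a fish.

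Coho salmon spend their first part of life in rivers and turn into smolts, which leave fresh water with a physiology prepared for salt water. The weeks after sea entry bring a change of diet, rapid growth and heavy mortality. The liver handles much of this: it stores and releases energy, makes the proteins of blood plasma and answers growth hormone with insulin-like growth factor. The comparison asks what differed in this organ between river smolts and fish that had recently entered the sea.

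Each array held the RNA of 1 fish against a pool of all liver samples. The values were read as log2 ratios of fish to pool, with the base likely but not stated. On that reading a difference of 1 between groups is a doubling. Which sample stands on top of the ratio is not named in the labels. Fish over pool is the likely reading, and the reverse would turn every increase reported here into a decrease. Between 14301 and 29987 of 43567 probes were measured per array, 21532 ± 4062 in spring fish and 21733 ± 3472 in smolts (SD, n = 14 and 17). Probes carry only the column and row of their spot (C024R016), and no table at hand pairs them with genes. The results are therefore given by probe identifier, and the liver identity of the samples could not be checked against marker genes. In whole liver, a lower share of a cell type and less RNA per cell cannot be told apart.

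Among the 31 fish, 3 stood closer to the other group than to their own by median correlation. Over the probes tested, Capilano River smolt 1 had a median correlation of 0.53 with the spring fish and of 0.02 with the other smolts. Spring fish 13 and 14 correlated with the smolts at a median of 0.41 and 0.24, against 0.06 and 0.07 with the other spring fish. Both were caught at latitude 48.801, both had the stock label Fraser, and they lay on different slides. The array nearest to each of them was that of the other, at a correlation of 0.74. All other fish correlated better with their own group, and the median over pairs was 0.47 among spring fish, 0.45 among smolts and -0.06 between the groups. Without the 3 fish these medians were 0.69, 0.47 and -0.09. Whether the 3 fish were mislabelled was not tested. The results below are given with and without them where they matter. The 3 fish were picked by correlation over these same probes, so larger group differences without them follow from the choice.

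**Figure D1:**
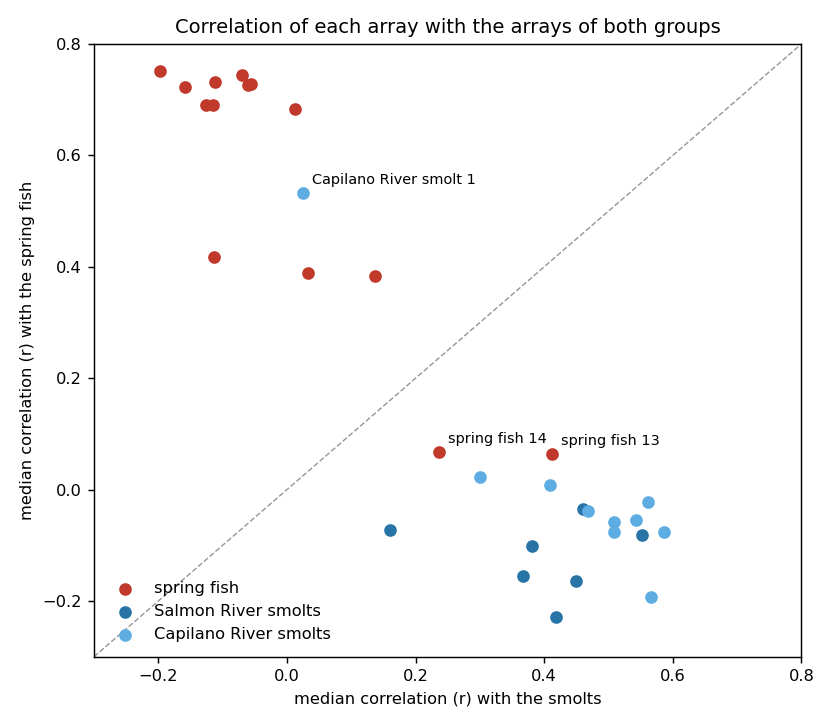
Median Pearson correlation of each array with the spring fish (vertical axis) and with the smolts (horizontal axis), 1 point per fish, coloured by group; on the dashed line both are equal. Capilano River smolt 1 lies among the spring fish at 0.53 on the vertical axis, and spring fish 13 and 14 lie on the smolts' side of the line at 0.06 and 0.07.

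Close to every other probe tested differed between the groups, with about as many higher in spring fish as lower. The medians of the arrays all lay between -0.01 and 0.03. A near-even split was therefore largely set by the centred ratios and is no result about the fish. Of 14837 probes measured on at least 80% of the fish of each group, 7339 (49.5%) differed between the groups at a Benjamini-Hochberg adjusted p below 0.05 by limma with the slide as a random block. Spring fish were higher on 3598 of them (24.3%) and lower on 3741 (25.2%). The differences were mostly moderate: their median size was 0.89 on the log2 scale, or 1.85-fold, and 2954 of them reached 1. Without the 3 fish that stood apart, 8763 of 14938 probes differed, 4383 higher and 4380 lower. Of the 7339, 7102 were called in the same direction in this refit of the remaining fish. The fish of both groups overlapped on nearly all of these probes. Of 10004 probes measured on every fish, 20 had all spring fish above all smolts and 6 had all spring fish below all smolts (0.26%). Without the 3 fish these numbers were 210 and 403 (6.13%). The 3 fish were left out for resembling the other group, so the higher counts without them follow from that choice and are a description.

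The largest increases were on C024R016 and C137R126, and the largest decreases on C175R046 and C192R100. On C024R016 the 13 spring fish measured had a lowest log2 ratio of -1.21, a median of 1.55 and a highest of 2.85, against -3.75, -1.96 and 0.30 in the 16 smolts measured. All but 1 of these spring fish lay above every smolt. The change was 3.30 ± 0.48 (SE; adjusted p = 4.51e-06), or 9.84-fold.

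On C137R126 the 14 spring fish ranged between -1.49 and 3.80 with a median of 0.76, against -3.82 to -0.88 with a median of -2.60 in the 16 smolts measured. Here 13 of the spring fish lay above every smolt. The change was 3.23 ± 0.42 (SE; adjusted p = 1.1e-06). Spring fish 13 and 14, at 1.00 and 0.88, lay with the other spring fish on this probe, and Capilano River smolt 1, at -1.75, lay with the smolts.

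On C175R046 the spring fish ranged between -6.69 and -0.19 with a median of -4.91, against -4.11 to 2.01 with a median of 0.72 in the smolts. The change was -4.69 ± 0.64 (SE; adjusted p = 1.72e-06), the largest of all probes, or 25.8-fold lower in spring fish. This probe placed the 3 fish that stood apart with the opposite group: spring fish 13 and 14 were at -0.19 and -0.64, and Capilano River smolt 1 was at -4.11.

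C192R100 showed the same arrangement of fish. The spring fish ranged between -7.25 and 0.86 with a median of -5.01, against -3.61 to 1.58 with a median of 0.74 in the smolts, and the change was -4.50 ± 0.72 (SE; adjusted p = 1.16e-05). Spring fish 13 and 14 were at 0.86 and 0.64, and Capilano River smolt 1 was at -3.61. Spring fish 7, at -0.13, was the third spring fish within the range of the other smolts.

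**Figure D2:**
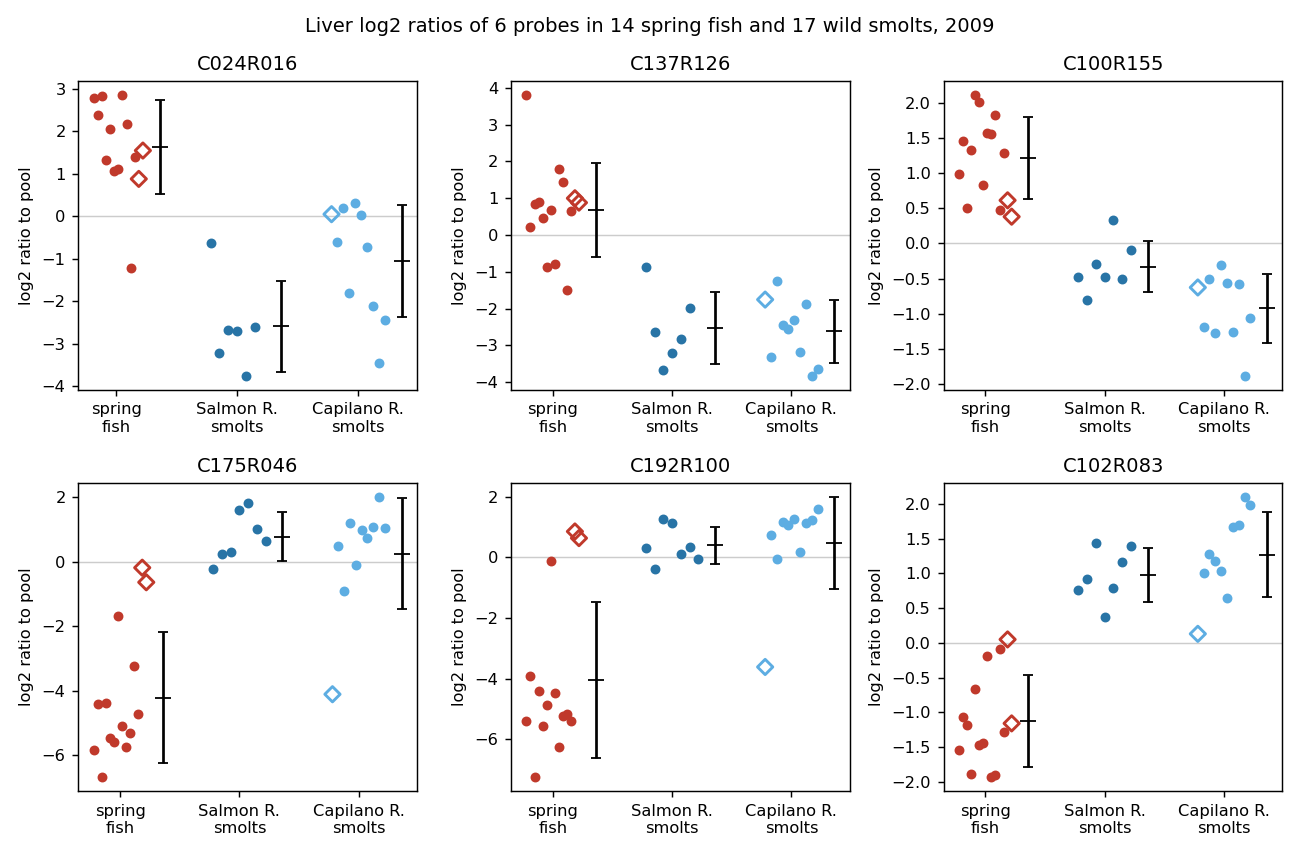
Log2 ratio to the pool (vertical axis) of 6 probes, 1 point per fish, in spring fish, Salmon River smolts and Capilano River smolts; bars are mean ± SD, and open diamonds mark spring fish 13 and 14 and Capilano River smolt 1. On C175R046 and C192R100 the diamonds lie with the opposite group, whereas on C100R155 and C102R083 all 14 spring fish are separate from all 17 smolts.

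The rivers gave similar counts. Against the 7 Salmon River smolts, 6567 of 14443 probes (45.5%) differed, and against the 10 Capilano River smolts 6557 of 15005 (43.7%), by limma with all 31 fish in 1 fit. Without the 3 fish that stood apart, 7767 of 14505 differed against the Salmon River and 8455 of 14689 against the Capilano River smolts. Smolts of different rivers correlated at a median of 0.36, below the 0.58 found among smolts of the same river for both rivers. All 4 of the probes named above differed against each river. C024R016 was 4.20 ± 0.56 (SE) higher in spring fish than in Salmon River smolts and 2.71 ± 0.49 higher than in Capilano River smolts, and the difference between the rivers did not pass the test (Salmon minus Capilano smolts -1.50 ± 0.59, SE; adjusted p = 0.131). A smaller count came from the Salmon River smolts when only they and the spring fish were fitted, with 4810 probes called.

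The label Fraser was held on both sides of the comparison, by 4 spring fish and by all 7 Salmon River smolts. Within it, 2795 of 12848 probes (21.8%) differed, 1542 higher and 1253 lower in the spring fish. Spring fish 13 and 14 are 2 of those 4, and without them 4491 of 12941 probes differed. That count rests on spring fish 9 and 12 alone against the smolts. Since the fish left out were picked for resembling smolts, the rise is a description. The largest increases were on C172R063 and again C024R016, and the largest decreases on C103R112 and C098R022.

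On C172R063 the 4 spring fish of the Fraser label had log2 ratios of 1.07, 0.95, -0.42 and 0.70, against a lowest of -5.92, a median of -3.96 and a highest of -2.05 in the Salmon River smolts. No spring fish of this label overlapped those smolts, and the change was 4.58 ± 0.75 (SE; adjusted p = 0.000151). This probe also differed between the rivers: Salmon River smolts were 2.50 ± 0.60 (SE) lower than Capilano River smolts (adjusted p = 0.0136 by limma). Against the Capilano River smolts the change in all 14 spring fish was 1.95 ± 0.51, and against the Salmon River smolts 4.44 ± 0.56 (SE).

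C098R022 had log2 ratios of -2.92, -1.48, -4.38 and -4.98 in the spring fish of the Fraser label, against 0.28 to 1.54 in the Salmon River smolts. The change was -4.25 ± 0.44 (SE; adjusted p = 1.11e-06). Among the 14 spring fish as a whole, the decrease was smaller, -2.38 ± 0.39 (SE; adjusted p = 1.59e-05), and 10 of them lay below every smolt.

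C103R112 was at -4.07, -1.60, -6.68 and -3.89 in the spring fish of the Fraser label, against -0.34 to 1.46 in the Salmon River smolts, a change of -4.54 ± 0.92 (SE; adjusted p = 0.00101). Some Capilano River smolts were as low, with a range of -5.67 to 0.73. Over all 31 fish its change of -1.30 ± 0.70 (SE) did not pass the test (adjusted p = 0.121).

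Among the spring fish themselves, 3 of 13431 probes (0.0223%) differed between the 8 fish of the ECVI label and the 4 of the Fraser label by limma, and 1689 had an unadjusted p below 0.05. Stock and catch place largely went together here: all 8 ECVI fish were caught between latitudes 49.183 and 49.195, and 3 of the 4 Fraser fish at 48.727 or 48.801. The other Fraser fish, spring fish 9, was caught at 49.183. It was at -2.57 on C141R015 and at 0.84 on C080R015, and 1 fish cannot tell stock and place apart. All 3 probes were higher in ECVI fish. C141R015 ranged between -0.07 and 1.01 in ECVI fish, against -2.57, -1.52, -2.67 and -2.79 in Fraser fish, and the change was 2.80 ± 0.41 (SE; adjusted p = 0.00222). The stocks did not overlap on it. C098R022, the probe described above, was 2.53 ± 0.43 (SE) higher in ECVI fish (adjusted p = 0.0124), with a range of -1.60 to -0.18 there. The third was C080R015, which was named because the count was small and not by the rule for named probes. It ranged between 0.77 and 1.40 in ECVI fish, against 0.84, -0.24, -1.16 and -1.64 in Fraser fish, a change of 1.70 ± 0.31 (SE; adjusted p = 0.0194). The calls on C098R022 and C080R015 were lost when either spring fish 13 or 14 was left out (adjusted p between 0.296 and 0.441), with changes that stayed at 2.02 or above on C098R022 and at 1.34 or above on C080R015. Spring fish 9 had the fewest measured probes of the 31 fish, 14301. Without it 416 of 15988 probes differed, so the count rests on single fish. The Fraser fish then left were spring fish 12, 13 and 14, caught at 48.727 or 48.801. The call on C141R015 was kept in all 7 alternatives run.

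**Figure D3:**
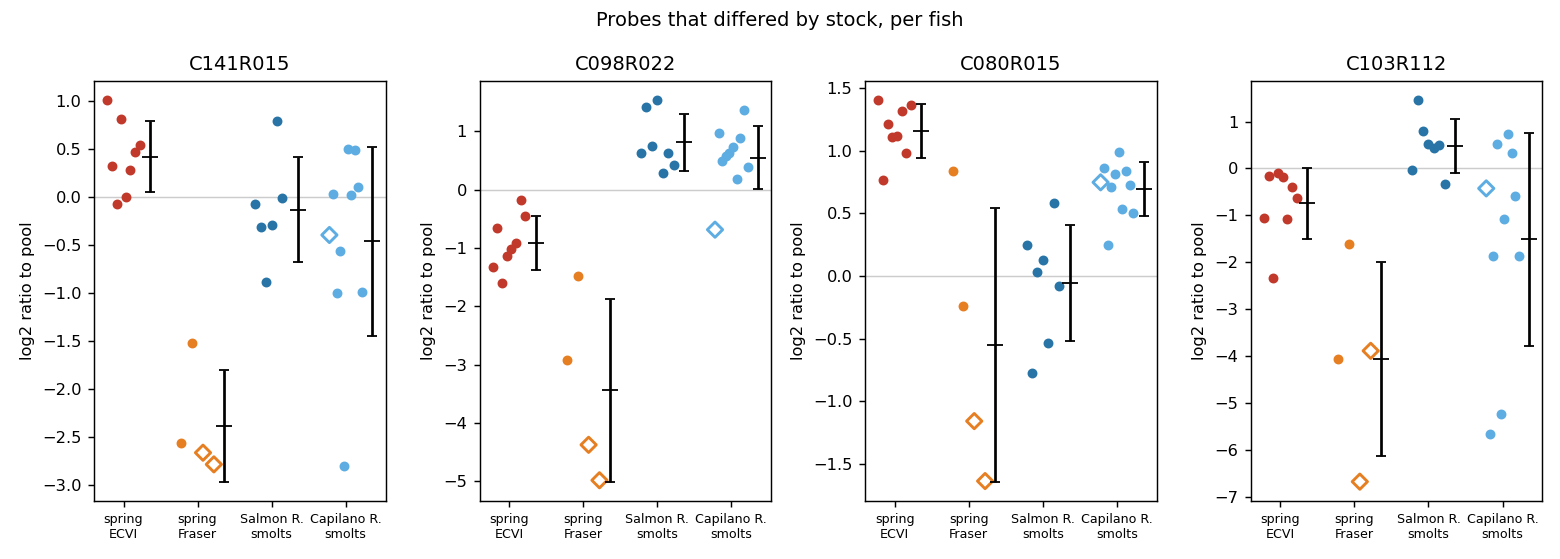
Log2 ratio to the pool (vertical axis) of 4 probes, 1 point per fish, in spring fish of the ECVI label, spring fish of the Fraser label, Salmon River smolts and Capilano River smolts; bars are mean ± SD, and open diamonds mark spring fish 13 and 14 and Capilano River smolt 1. On C141R015 the 4 Fraser fish lie between -2.79 and -1.52, below all 8 ECVI fish, and on C103R112 Capilano River smolts reach down to -5.67.

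Much of the difference between spring fish and smolts ran along an axis that also separated fish within other stages. The axis was the first principal component of the summer and fall fish of the series, none of them among the 31, over 7169 probes measured on every array. It held 35.2% of their variance. The score is in SD of summer and fall fish, with its sign set so that spring fish are high. Spring fish scored 1.31 ± 0.98 and smolts -0.69 ± 0.58 (SD, n = 14 and 17; difference 1.99, two-sided permutation p = 4e-05, 0.00016 after adjustment over 4 measures of the fish). Positive scores were found in 12 of 14 spring fish, in 0 of 7 Salmon River smolts and in 1 of 10 Capilano River smolts. The exceptions were the 3 fish described above, with scores of -0.87 and -0.54 for spring fish 13 and 14 and of 1.47 for Capilano River smolt 1. Without these 3 fish the scores were 1.64 ± 0.53 in spring fish and -0.82 ± 0.18 in smolts (SD, n = 12 and 16), given without a test because the fish were left out for resembling the other group. Across the 7169 probes the change between spring fish and smolts correlated with the loading on this axis at r = 0.86, a description over probes of the same arrays.

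With the axis score as a covariate, which itself correlated with the group at r = 0.79, 457 of 14837 probes (3.08%) differed between spring fish and smolts, of which 301 were higher and the others lower. Of the 457, 265 were among the 7339 called without the covariate, and 249 of these had the same direction in both fits. The change on C192R100 was then -0.01 (adjusted p = 0.994), that on C175R046 was -0.64 (adjusted p = 0.309) and that on C024R016 was 1.81 (adjusted p = 0.0997). C137R126 passed the test in this fit too.

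**Figure D4:**
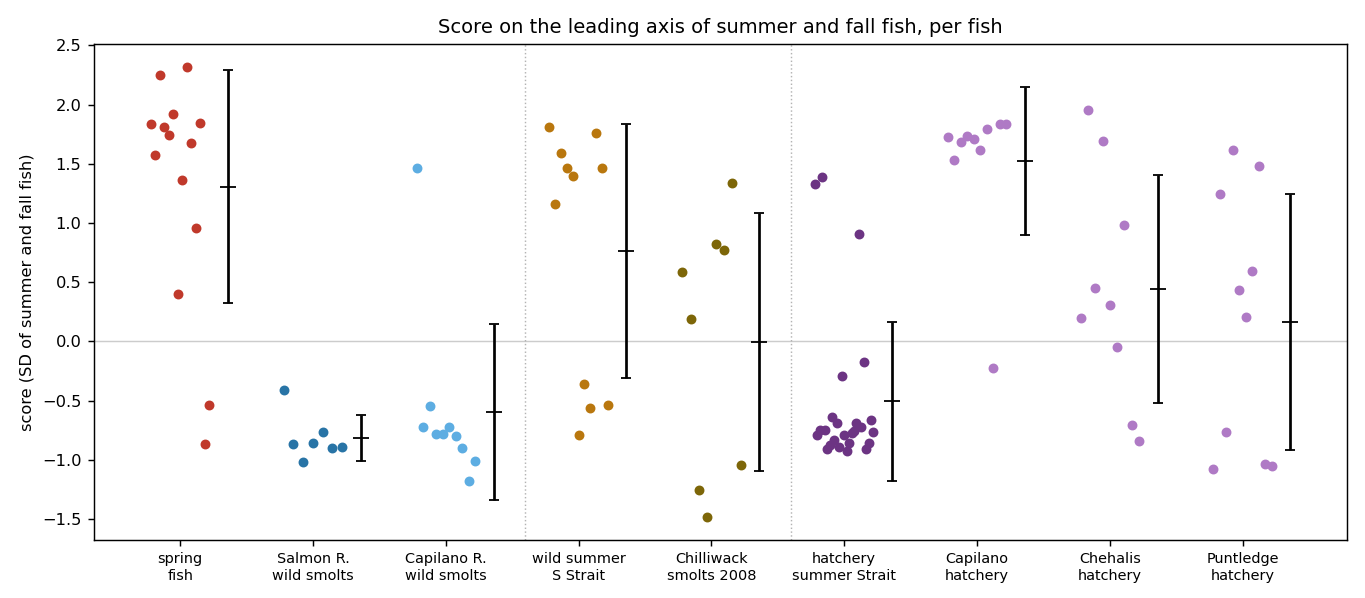
Score on the leading axis of summer and fall fish (vertical axis, in SD of those fish), 1 point per fish, for the spring fish and their smolts (left), wild summer fish and the Chilliwack smolts of 2008 (middle) and hatchery summer fish and 3 groups of hatchery smolts (right); bars are mean ± SD. Of the spring fish, 12 of 14 lie above 0, as do 9 of 10 hatchery smolts of the Capilano River, whereas 22 of 25 hatchery summer fish lie below 0.

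Other fish of the series allowed 2 further comparisons between sea and river that share no fish with the 31. In the first, 11 wild summer fish of south_SoG from 2009 were set against 8 wild Chilliwack smolts of 2008, and 3230 of 15838 probes differed (20.4%). In the second, 25 hatchery summer fish of south_SoG and NM_SoG from 2009 were set against 29 hatchery smolts of the same year from the Capilano, Chehalis and Puntledge hatcheries, and 6567 of 14934 differed (44%). Summer fish were caught later in the year than spring fish, and the groups of the first comparison also differ in year. The 2 comparisons differ in sea area as well as in origin, since all 11 wild summer fish came from south_SoG and 20 of the 25 hatchery summer fish from NM_SoG.

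The wild comparison went the same way as that of the spring fish. Of 3534 probes higher in spring fish and tested there, 90.8% were also higher in wild summer fish, where 53.6% of all probes were higher, and 30.1% were called higher, against 11.6% of all probes. Of 3607 lower in spring fish, 79.5% were also lower and 22.1% were called lower, against 8.81% of all probes. Calls in the opposite direction made up 0.311% and 0.721%. Across 14291 probes the changes correlated at r = 0.60, as a description over probes measured against the same pool. Not every large change recurred. C024R016 and C137R126 were also higher in wild summer fish, by 2.48 ± 0.36 and 2.74 ± 0.52 (SE, both called by limma). C192R100 and C175R046 did not pass there, with changes of -0.35 ± 1.21 and -0.76 ± 1.11 (SE; adjusted p = 0.862 and 0.66 by limma).

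The hatchery comparison went the other way. Of the probes higher in spring fish, 27.1% were also higher in hatchery summer fish, where 48.7% of all probes were higher, and 32.3% were called lower, against 22.1% of all probes. Of those lower in spring fish, 24.5% were also lower and 46.4% were called higher, against 21.9% of all probes. Across 14087 probes the changes correlated at r = -0.40. C192R100, at -4.50 in spring fish against wild smolts, was 3.03 ± 0.65 (SE) higher in hatchery summer fish than in hatchery smolts (adjusted p = 0.000212), and C175R046 was 2.19 ± 0.57 higher (adjusted p = 0.00176). The axis scores lay the other way round as well: 3 of 25 hatchery summer fish were above 0, against 9 of 10 Capilano, 6 of 9 Chehalis and 6 of 10 Puntledge hatchery smolts. In the wild comparison 7 of 11 summer fish were above 0, and so were 5 of 8 Chilliwack smolts. Low scores were thus not shared by all wild smolts of the series. Without the 3 fish that stood apart the correlation was -0.48, and with the wild comparison it was 0.56. The scores also followed area: they averaged 0.76 ± 1.07 in wild summer fish of south_SoG and -0.48 ± 0.52 in those of NM_SoG (SD, n = 11 and 16), and 0.09 ± 1.16 in hatchery summer fish of south_SoG and -0.65 ± 0.42 in those of NM_SoG (n = 5 and 20). Origin and area were not separated in this contrast. By hatchery, the correlation was -0.58 with Capilano, -0.25 with Chehalis and -0.09 with Puntledge smolts alone. Without the Capilano smolts it was -0.19. In that fit 12.9% of the probes higher in spring fish were called higher and 14.2% lower. Of those lower in spring fish, 10% were called lower and 24.4% higher, where 31.3% of all probes were called in either direction.

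With the axis score as a covariate in each fit, an alternative chosen after the data were seen, both comparisons went the same way as that of the spring fish. The changes correlated at r = 0.49 with those of the wild comparison and at 0.47 with those of the hatchery comparison. Of the probes higher in spring fish in this fit, 279 were tested in hatchery fish and 91.4% of them were higher there, where 50.5% of all probes were higher. Of those lower in spring fish, 92.1% were also lower there. The score is computed from the same arrays, and the summer fish of both comparisons helped to define the axis.

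**Figure D5:**
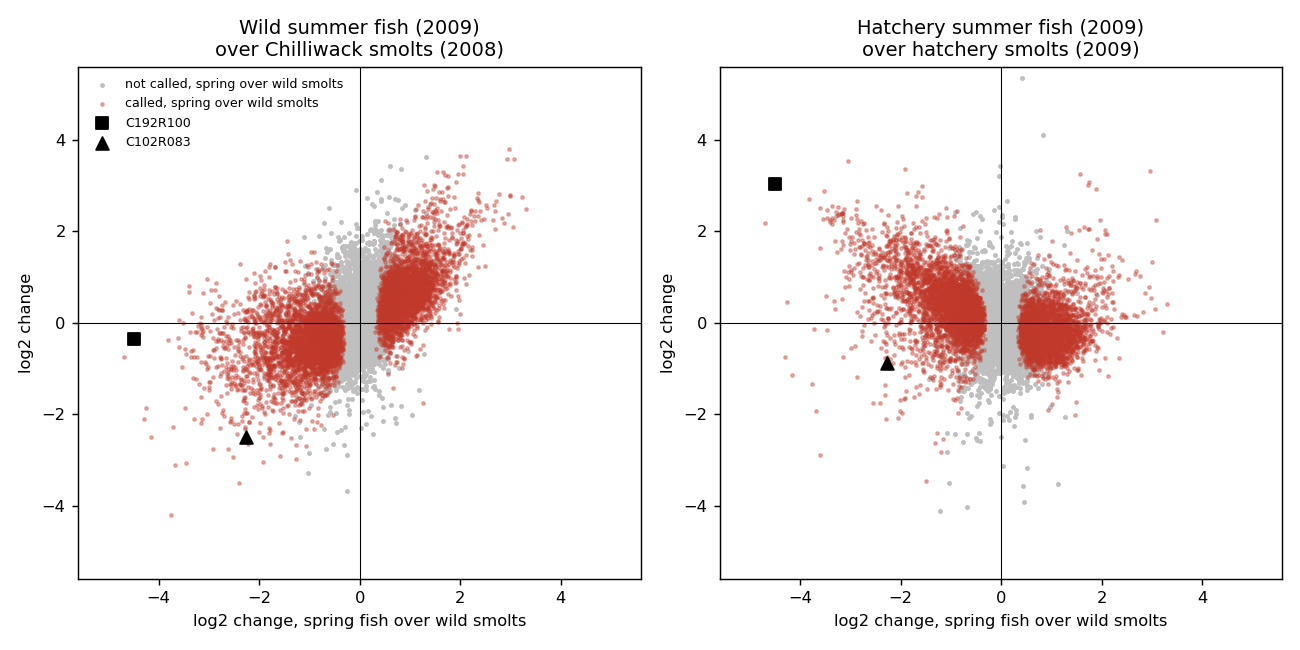
Log2 change in spring fish over wild smolts (horizontal axis) against the log2 change in wild summer fish over Chilliwack smolts (left) and in hatchery summer fish over hatchery smolts (right), 1 point per probe, red where spring fish and wild smolts differed. The cloud rises to the right in the wild comparison (r = 0.60) and falls in the hatchery comparison (r = -0.40), where C192R100 is at 3.03 and C102R083 at -0.88.

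The 26 probes on which no spring fish overlapped a smolt were followed in these other fish. Each of them moved in the same direction in wild summer fish, and 15 of the 26 were called there, against 20.4% of all probes. In the hatchery comparison 11 of the 26 moved the same way, with a median change of -0.10 in the direction of the spring fish. Here 2 were called in that direction and 4 in the opposite one, 6 of 26 in all, against 44% of all probes.

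C100R155 and C102R083 were the 2 probes that separated all 31 fish and were called the same way in both further comparisons, and they were chosen after these values were seen. An adjusted p below 0.05 in each comparison was part of that choice. The ranges, changes and adjusted p-values of the 2 probes therefore describe the choice and are no independent check. C100R155 ranged between 0.38 and 2.11 in spring fish with a median of 1.31, against -1.88 to 0.33 with a median of -0.57 in smolts, a description of the choice. It was 0.95 ± 0.29 (SE) higher in wild summer fish than in Chilliwack smolts (adjusted p = 0.0216) and 0.53 ± 0.19 higher in hatchery summer fish than in hatchery smolts (adjusted p = 0.0232). C102R083 ranged between -1.94 and 0.05 in spring fish with a median of -1.23, against 0.13 to 2.10 with a median of 1.16 in smolts. Its change was -2.50 ± 0.32 (SE) in the wild comparison (adjusted p = 1.76e-05) and -0.88 ± 0.16 in the hatchery comparison (adjusted p = 1.28e-05). In total, 417 of 13773 probes (3.03%) were called in the same direction in all 3 comparisons, 210 of them higher. In spring fish and in the wild comparison alike, 1064 probes were called higher and 796 lower. Over all probes, the hatchery comparison called 21.9% higher and 22.1% lower. These shares of the 1064 and 796 would give about as many probes as were found. Of the probes higher in spring fish, 8.25% were called higher in the hatchery comparison, and 8.84% of those lower were called lower. Those shares would give fewer probes than were found. The count is therefore a description, and whether it marks a shared set was not tested.

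Some probes had a value in few fish and could not enter the test of ratios. Of 30187 probes measured on some but not all of the 31 fish, 1 (0.00331%) was measured more often in one group by Fisher's exact test at an adjusted p below 0.05, and 1476 had an unadjusted p below 0.05. On C181R070, 12 of 14 spring fish had a value, against 0 of 17 smolts (two-sided Fisher's exact test, adjusted p = 0.0195). Spring fish 13 and 14 were among the 12. The values ranged between -0.36 and 3.31. Elsewhere in the series it was measured on 19 of 67 summer, 2 of 71 fall and 1 of 12 winter fish, on 3 of 37 other smolts and on 0 of 8 parr. An empty cell is not a measured level, and what the submitters left empty was not stated in the labels. By the same test the count was 0 when each slide was counted once per group, with 0.673% of 26167 probes at an unadjusted p below 0.05. With 8 columns in each group, a single probe could not reach an adjusted p below 0.05. That count is therefore no check on C181R070.

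Slides held up to 4 arrays, and 1 slide held both groups, with spring fish 3 and Capilano River smolt 10. It is 1 fish against 1, and both helped to define the called probes, so their difference is a description and no independent check. In this pair 43.1% of all probes were above 0, against 80.3% of the probes called higher, and 91.7% of those called lower were below 0. Over 14649 probes the difference correlated with the overall change at 0.70. C192R100 differed by -8.84 and C137R126 by 4.50 in this pair. With the slide as a fixed block, where the change rests on this pair alone, 4455 probes were called, and 1009 of the 7339 had the opposite sign. Fish on the same slide and of the same stage correlated at a median of 0.60, against 0.43 on different slides. Smolts that shared a slide were always of the same river, and the pairs on different slides included those between rivers, with a median of 0.36. Slide and river were not separated in these medians. Over 4 blocks of the array, between 48.4% and 50.2% of the probes were called.

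The spring fish were a little longer, with a fork length of 11.3 ± 1.07 cm against 10.4 ± 1.26 cm in smolts (SD, n = 14 and 17; two-sided permutation p = 0.0498, 0.0664 after adjustment over 4 measures). Body mass was entered as 0 for the spring fish and was not used. The rows of the control spots named DCP_22 averaged 0.42 ± 0.35 in spring fish and 0.18 ± 0.19 in smolts (SD, n = 14 and 16; two-sided permutation p = 0.0225, adjusted 0.045). Their part in the results was not tested beyond a fit with them as a covariate, in which 6955 of 15035 probes differed. With fork length as a covariate 7023 of 14837 differed.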

How the data were processed

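The log2 ratios of each fish to the pooled liver reference, whose dye was the same on all arrays per the labels' protocols, were used as the authors deposited them, and both deposited tables held the same values. Of the scanner, the normalization and the rule for empty cells nothing was stated in the labels. The base of the logarithm and the direction of the ratio are likely readings, and both are unstated. Of the cells of the 31 fish, 50.3% were empty, and the medians of the arrays lay between -0.01 and 0.03. Groups came from the season, year, origin and area labels. No column was left without a sample.

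Probes measured on at least 80% of the fish of each group were fitted with limma 3.58.1 in R 4.3.3, with the slide as a random block (consensus correlation 0.14, from 3000 probes). A p was adjusted by Benjamini-Hochberg over all probes tested and called below 0.05. The p-values measure the spread between fish, each a separate animal, and the number of arrays limits the precision. They do not cover the spread between catch places, which were few. Spring fish 2 to 9 shared a catch position and spring fish 13 and 14 another. All smolts of a river shared a position as well. Single measures of the fish were tested by permutation with 100000 resamples in scipy 1.17.1. Because no table pairs probes with genes, the planned gene lists and cell type markers were not used. Named probes are the 2 largest increases and 2 largest decreases among called probes of a comparison, and for measured probes the smallest p. The comparisons, members and lists were chosen with earlier results of these data known.

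In simulated ratios with 200 changed probes among 14837, 73% of those changed by 1 and 96% of those changed by 2 (log2) were recovered for spring fish against smolts, and 8 unchanged probes were called. Among 13431 probes for ECVI against Fraser fish, 31% and 85% were recovered. The noise was drawn independently for each probe. In the data 49.5% of the probes were called for spring fish against smolts, and many probes varied together along the leading axis. The simulated rates therefore need not hold for the measured arrays. Alternatives covered the filter, slide, normalization, covariates, rivers, stocks and single fish.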

Additional observations from a re-analysis of the deposited data

Results flagged for a closer look

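In 60 combinations of a measure and a group of 4 to 10 fish, 12 had a highest or lowest fish far from the others by Dixon's criterion, which chance meets in about 1 of 20 groups. Among Capilano River smolts, fish 1 stood apart with an axis score of 1.47, a log2 ratio of -4.11 on C175R046 and of -3.61 on C192R100. In the same group fish 9 was at -4.99 on C172R063 and fish 5 at -2.81 on C141R015. Among Salmon River smolts, fish 1 had the highest axis score, -0.41, and the highest ratio on C024R016, -0.62, and only 16584 probes were measured on its array. Among the spring fish of the ECVI label, fish 7 was at -1.68 on C175R046 and at -0.13 on C192R100, fish 1 at 3.80 on C137R126, and fish 3 at -2.34 on C103R112 and at -0.22 for the mean of the control rows.

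The change on C172R063 differed between the rivers: spring fish exceeded Salmon River smolts by 2.50 more than they exceeded Capilano River smolts (SE 0.60; adjusted p = 0.0136 by limma), with 11 of 14 spring fish above every smolt.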

How the results depend on the processing

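For spring fish against wild smolts, 7339 probes were called, and leaving out 1 fish at a time gave between 6895 and 7914. The count moved by more than 1.5 times with the axis score as a covariate (457), the slide as a fixed block (4455), Salmon River smolts fitted alone (4810) and spring fish of stocks other than ECVI alone (2707). Of the 7339, 2618 kept call and direction with the fixed block and 249 with the axis score, where 2162 had the opposite sign. Without spring fish 13 and 14, Fraser spring fish against Salmon River smolts gave 4491, and leaving out 1 Fraser spring fish gave 1921 to 3416. The 3 probes called between ECVI and Fraser fish became 6 with probes measured on at least 50% of fish, and between 1 and 416 when 1 Fraser fish was left out. Wild summer fish against Chilliwack smolts gave 2039 with quantile normalization. Hatchery summer fish against hatchery smolts gave 4350 without Capilano smolts, 1586 with Chehalis alone, 3930 with Puntledge alone and 3527 with the axis score. Probes measured more often numbered 0 with slides counted once, 0 with Salmon River and 0 with Capilano River smolts alone (0.673% of 26167 probes, 899 probes and 1017 probes had an unadjusted p below 0.05 by Fisher's exact test), and 48 without the 3 fish that stood apart. With slides counted once a single probe could not pass, so that count of 0 is no check. The causes were not tested. The other 76 recomputed counts and group differences stayed within 1.5 times or kept their direction and call. For single probes, 355 recomputed changes kept direction and call, 8 lost the call and 0 reversed; beside those named, C100R155 lost it with the slide as a fixed block (1.56, adjusted p = 0.0687). The single probes were picked for large called changes or for separating the groups, and most of their refits left out only 1 fish. Their kept calls are therefore a description and no independent check. The settings that leave out the 3 fish, spring fish 3 or the southern fish, the control rows and the axis score in further comparisons were chosen after seeing the data. Apart from the control rows, no row came from the other deposited table, which holds identical values for the probes in both. No paired analysis was possible because the numbers of the fish only name them and pair no fish across groups.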

Other observations

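The 1232 probes higher by at least 1 (log2) in spring fish and the 1722 lower by at least 1 were followed in the other fish of the series, as a description. Spring fish had a median level of 0.59 on the first list and of -1.05 on the second, against -0.92 and 0.57 in Salmon River smolts and -0.60 and 0.39 in Capilano River smolts. Wild summer fish of the area WCVI, at 0.34 and -0.80, and of south_SoG, at 0.30 and -0.63, lay on the side of the spring fish, whereas the 16 of NM_SoG, at -0.29 and 0.14, lay on the side of the smolts with a mean axis score of -0.48. The hatchery smolts of the Capilano River, at 0.27 and -0.995, lay on the side of the spring fish, although they were taken from a river. Wild winter fish of NM_SoG, at -0.68 and 0.47, lay near the wild smolts, with a mean axis score of -0.91 against 1.31 in spring fish. Parr were at -0.06 and -0.47.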
